A study of Glycine max with 4 samples.

Results

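The PHT1 phosphate transporters of soybean (Glycine max) root were followed through 4 messenger RNA libraries. The family is represented by 9 gene identifiers, taken by name from a fixed list of GmPT genes, out of 47973 identifiers listed in at least 1 library. All 9 were listed in at least 1 library and 6 in all 4. The roots came from 2 groups with 2 libraries each. The Ri group (the submitters' own short name) is transgenic soybean in which GmHAD1-2 is suppressed, and the WT group is wild-type soybean. Both grew for 12 days in a solution that held KH2PO4, stated as 250 mM, a unit that is in doubt because such solutions usually hold micromolar phosphate. No group without phosphate supply is analysed here, so all levels are those of phosphate-supplied roots. The labels state neither the number of plants per library, nor that of transgenic lines, nor the promoter of the suppression construct. The libraries of a genotype are called biological replicates in the design text. The p-values rest on the spread between them, which the tests of single genes moderate with the spread of other genes.

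PHT1 proteins are proton-coupled phosphate importers of the plasma membrane. In plants they take up inorganic phosphate from the soil solution at the root epidermis and root hairs, and some members move it between tissues or act where root cells meet mycorrhizal fungi or nodule bacteria. Many PHT1 genes are induced when phosphate is scarce, through PHR-type transcription factors, and PHT1 proteins leave the endoplasmic reticulum with the help of PHF1 and are removed through PHO2. GmHAD1-2 is named after the haloacid dehalogenase superfamily, which holds many phosphatases.

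The identifiers lie on 6 chromosomes, with 4 of them on chromosome 10 and 1 each on chromosomes 3, 7, 14, 19 and 20, as the number inside each identifier gives it. All carry the ending Wm82.a2.v1, which names an annotation of the cultivar Williams 82; it is written at the first mention of a gene and left out after that. The RefSeq table of another assembly (Glycine_max_v4.0) lists 14 numbered PHT1 symbols, 12 of them on the same 6 chromosomes, but 0 of the 9 identifiers matched it. The individual GmPT names, and with them the roles known for single members, are therefore not given here, and the label PHT1 rests on the list. GmHAD1-2 could not be tied to an identifier either, so its suppression in the Ri libraries rests on the labels. Markers of root, nodule and shoot cells could not be tied to identifiers, and the labelled tissue was not checked against them. The libraries held 10077854 to 11070260 expected counts (estimated fragments per gene), at which 3 counts, taken as the floor of a library, correspond to 0.264 to 0.306 CPM (CPM, counts scaled to library size, here with the TMM method of edgeR).

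The members are described here in tiers of level, spanning from 75.04 FPKM down to single fragments. FPKM is the authors' value per length of transcript and per depth, so that genes can be compared with each other. Among the 9 listed members, with PHT1 genes outside the list not examined, Glyma.10G186500.Wm82.a2.v1 made up most of the summed FPKM. It stood at 46.6 and 75.04 FPKM in Ri replicates 1 and 2, and at 61.8 and 55.6 FPKM in WT replicates 1 and 2. These values lay above those of every other member in all 4 libraries. Its share of the summed FPKM of the 9 members was 66.6% and 63.7% in the Ri libraries and 64.7% and 61.9% in the WT libraries. Among all genes, 5.31% and 3.16% of those listed in the Ri libraries and 3.86% and 4.31% of those listed in the WT libraries had a higher FPKM.

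**Figure D1:**
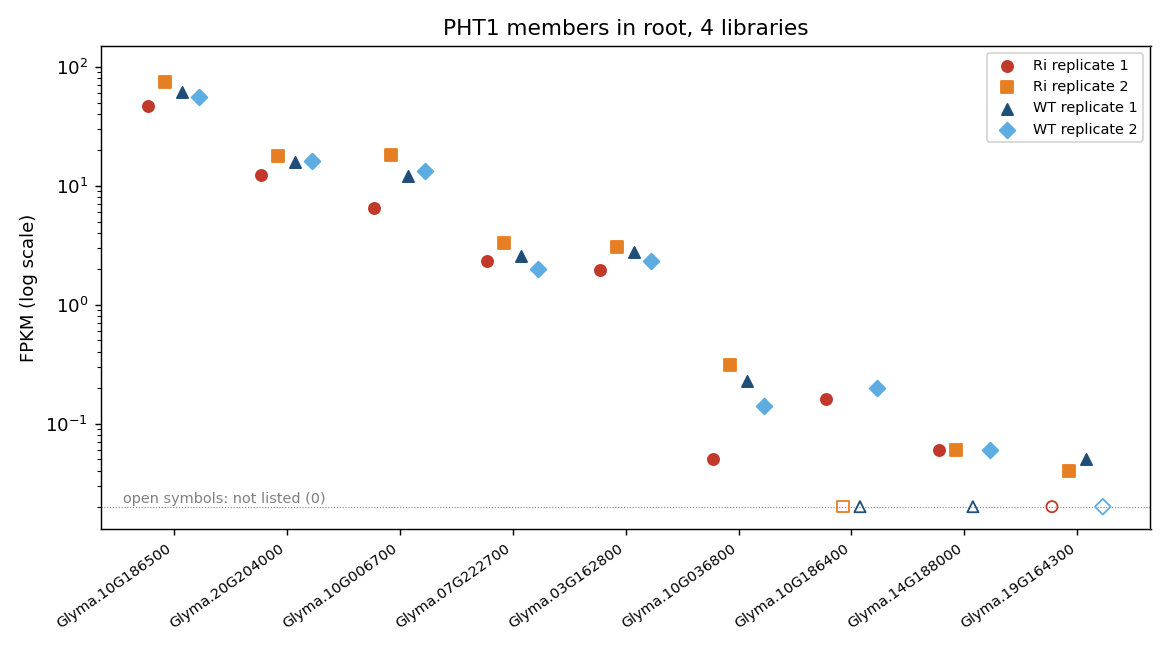
FPKM of the 9 PHT1 genes (log axis) in the 4 libraries, ordered by their mean over the libraries, with 1 symbol per library and open symbols where a gene is not listed. Glyma.10G186500 lies above all others, 4 genes lie between 1.97 and 18.1 FPKM, and the last 4 stay at or below 0.31 FPKM.

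Glyma.20G204000.Wm82.a2.v1 and Glyma.10G006700.Wm82.a2.v1 followed. Glyma.20G204000 stood at 12.2 and 18.0 FPKM in the Ri libraries and at 15.8 and 16.2 FPKM in the WT libraries. For Glyma.10G006700 the values were 6.55 and 18.1 FPKM in the Ri libraries and 12.2 and 13.4 FPKM in the WT libraries. Their ranges over the libraries overlapped, and Glyma.20G204000 was the higher of the pair in 3 of 4 libraries, the exception being Ri replicate 2. The lowest value of Glyma.10G186500, 46.6 FPKM, was well above the highest value of Glyma.20G204000, 18.0 FPKM. Of all genes listed, 17.1% to 22.5% had a higher FPKM than Glyma.20G204000 in a library, and 17.0% to 36.1% a higher FPKM than Glyma.10G006700.

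The next pair in the order, Glyma.07G222700.Wm82.a2.v1 and Glyma.03G162800.Wm82.a2.v1, lay below the middle of the listed genes, with 56.0% to 64.8% of them higher than Glyma.07G222700 and 58.1% to 61.9% higher than Glyma.03G162800. Glyma.07G222700 reached 2.32 and 3.33 FPKM in the Ri libraries, against 2.58 and 1.99 FPKM in the WT libraries. Glyma.03G162800 reached 1.97 and 3.03 FPKM in the Ri libraries, against 2.77 and 2.34 FPKM in the WT libraries. Their ranges overlapped and their order changed between libraries, with Glyma.07G222700 higher in both Ri libraries and Glyma.03G162800 higher in both WT libraries. Glyma.07G222700 had 41.67 to 72.5 expected counts per library and Glyma.03G162800 had 42 to 70.96. No counting interval was computed for this pair, and a difference in their order between genotypes was not tested. Over the 4 libraries Glyma.07G222700 averaged 2.56 FPKM ± 0.570 and Glyma.03G162800 2.53 FPKM ± 0.468 (SD, n = 4), so that the difference between them was smaller than either spread. Both lay below the lowest value of Glyma.10G006700, 6.55 FPKM. Glyma.03G162800 is listed with 2 transcripts, and with 1 transcript each are Glyma.07G222700 and the 3 members above them in the order.

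The last tier was at the limit of detection. Glyma.10G036800.Wm82.a2.v1 had 1 and 7 expected counts in the Ri libraries and 5 and 3 in the WT libraries, at most 0.31 FPKM. Glyma.10G186400.Wm82.a2.v1 had 3 and 0 counts in the Ri libraries and 0 and 4 in the WT libraries. For Glyma.14G188000.Wm82.a2.v1 there was 1 count in each Ri library, with 0 and 1 in the WT libraries. Glyma.19G164300.Wm82.a2.v1 had 0 and 1.04 counts in the Ri libraries and 1.23 and 0 in the WT libraries. All but 3 of these values are at or below the floor of 3 counts, the order among the 4 genes was not the same from library to library, and no difference between genotypes was detectable at this depth. None of the 4 passed edgeR's default filter on low counts. Fitted without that filter, Glyma.10G036800 had the narrowest 95% interval of the log2 fold change among the 4, -2.71 to 2.63, and Glyma.19G164300 the widest, -6.64 to 6.62.

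The contrast between Glyma.10G186400 and Glyma.10G186500 stood out, since their identifiers follow each other in the numbering of the annotation. Over the 4 libraries together, 6014 counts fell on Glyma.10G186500 and 7 on Glyma.10G186400. Per length, the level of Glyma.10G186500 was 694.7 times that of its neighbour, with an exact 95% binomial interval of 336.9 to 1729 that covers counting error only. Against Glyma.10G036800, the least rare gene of the low tier, the same ratio was 331.4 with an interval of 203.9 to 580.2.

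The proportions among the expressed members held to different degrees. The ratio of Glyma.10G186500 to Glyma.20G204000 in FPKM was 3.81 and 4.18 in the Ri libraries and 3.91 and 3.44 in the WT libraries. Its ratio to Glyma.10G006700 varied more, at 7.12 and 4.16 in the Ri libraries and 5.07 and 4.16 in the WT libraries. The highest of these values belongs to Ri replicate 1, where Glyma.10G006700 took 9.36% of the summed FPKM of the 9 members. Its share was 15.3% in Ri replicate 2 and 12.8% and 14.9% in the WT libraries. Expected counts divide a fragment that matches several genes among them, so a count that is not whole can mark a gene that shares fragments with others. None of the counts of Glyma.10G186500, Glyma.20G204000, Glyma.10G006700 and Glyma.07G222700 was whole (within 0.005) in any library, which held for 73.4% of all genes tested and is thus the usual case. Their levels carry the uncertainty of that division, whose size was not measured. Glyma.03G162800 had whole counts in 2 libraries, Ri replicate 1 and WT replicate 2. The counts of Glyma.10G036800, Glyma.10G186400 and Glyma.14G188000 were whole in all 4 libraries, as were those of 25.5% of all identifiers. These counts run from 0 to 7, and a 0 for a gene not listed was taken as whole. They therefore say little about shared fragments.

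Ri roots were then compared with WT roots, which asks whether transcript levels of the listed PHT1 genes differ where GmHAD1-2 is labelled as suppressed. None of the 5 PHT1 genes that were tested was called higher or lower in Ri. Of the 5 members that passed the filter on low counts, 0 passed at an adjusted p under 0.05 in edgeR's quasi-likelihood test (Benjamini-Hochberg over 34151 genes), where 40 genes or 0.117% of all genes tested passed, all of them lower in Ri. The smallest unadjusted p of a member was 0.384, so 0 members were under 0.05 before adjustment, where 6.25% of all genes tested were. DESeq2, which called 0.925% of the genes, also called 0 members. With so small a share of all genes called by either test, 0 of 5 members says little about them. As limma-voom and limma on FPKM called 0 of the 34151 genes, their 0 members carry no information on the family. The count of 40 itself became 0 when either WT replicate 1 or WT replicate 2 was left out, and it grew to 1994 without Ri replicate 1 and to 1623 when Ri replicate 2 was left out. The median log2 fold change of the 5 members was -0.04, beside 0.02 for all genes tested, and 2 members were above 0 and 3 below. In 0 of the 5 did the genotypes lie apart without overlap, where 36.2% of all genes tested did. In bulk roots, fewer cells that express a gene and less of its RNA per cell cannot be told apart.

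Glyma.10G186500 averaged 60.8 FPKM ± 20.1 in Ri roots and 58.7 FPKM ± 4.36 in WT roots (SD, n = 2 each). Its log2 fold change was 0.04 (standard error 0.26, edgeR adjusted p = 0.990), and the 95% interval of -0.60 to 0.67 corresponds to 0.662 to 1.59 times the WT level. In FPKM, both WT values lay between the Ri values. Glyma.20G204000 averaged 15.1 FPKM ± 4.05 in Ri roots and 16.0 FPKM ± 0.240 in WT roots (SD, n = 2 each). The log2 fold change was -0.10 (standard error 0.21, edgeR adjusted p = 0.963), with a 95% interval of 0.656 to 1.33 times the WT level. This was the narrowest interval of the 5, and a change of 2-fold in either direction lies outside it, as it does for Glyma.10G186500. Both intervals use 6.27 degrees of freedom, which edgeR draws in part from the spread of other genes. No interval from the 4 libraries of a gene alone was computed, so a 2-fold change is not excluded on those alone.

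Glyma.10G006700 had the widest interval. It averaged 12.3 FPKM ± 8.13 in Ri roots and 12.8 FPKM ± 0.834 in WT roots (SD, n = 2 each), with a log2 fold change of -0.07 (standard error 0.43, edgeR adjusted p = 0.988). The interval runs from 0.452 to 2.00 times the WT level, which leaves a halving within it and just reaches a doubling. For Glyma.07G222700 the log2 fold change was the largest of the 5, at 0.29 (standard error 0.31, edgeR adjusted p = 0.922), with an interval of 0.723 to 2.08 times the WT level. Its mean was 2.83 FPKM ± 0.714 in Ri roots, against 2.29 FPKM ± 0.417 in WT roots (SD, n = 2 each). Glyma.03G162800 averaged 2.50 FPKM ± 0.750 in Ri roots and 2.56 FPKM ± 0.304 in WT roots (SD, n = 2 each), a log2 fold change of -0.04 (standard error 0.31, edgeR adjusted p = 0.990), with an interval of 0.572 to 1.64 times the WT level.

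**Figure D2:**
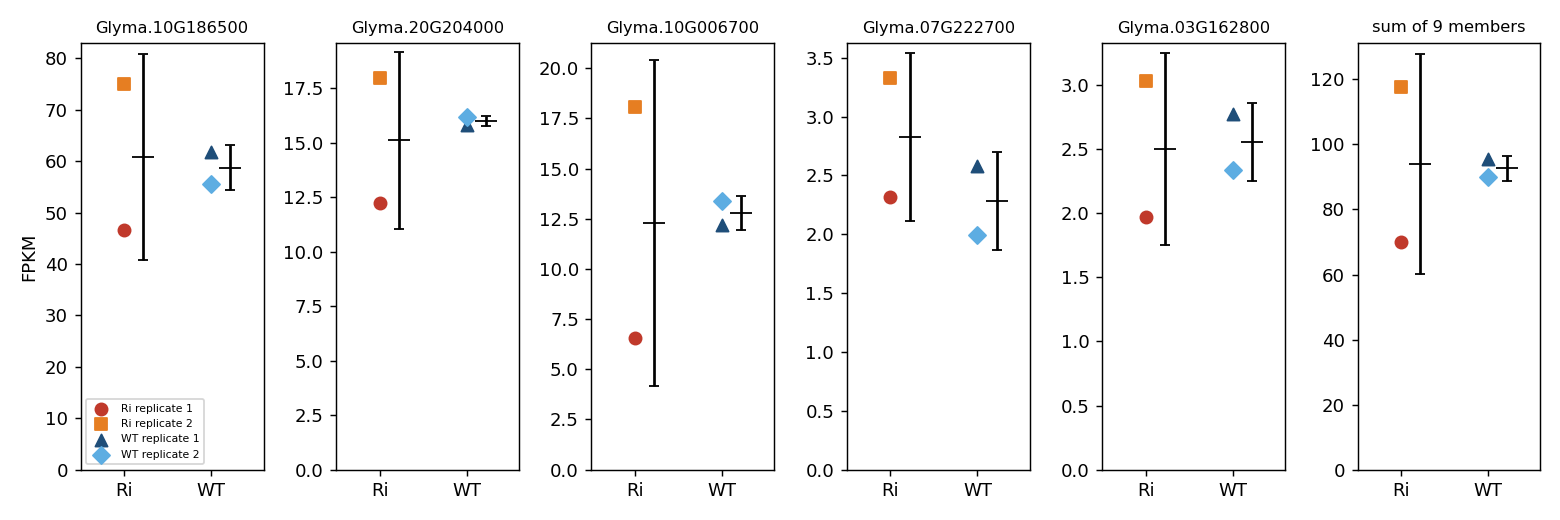
FPKM (linear axes from 0) of the 5 tested PHT1 genes and of the sum of the 9 genes, with Ri libraries left and WT libraries right and bars for the mean and SD (n = 2 each). The Ri replicates lie apart, replicate 1 low and replicate 2 high, and the WT values fall between them in every panel except that of Glyma.07G222700, where WT replicate 2, at 1.99 FPKM, is the lowest.

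The family as a whole gave the same picture. The summed FPKM of the 9 members was 69.97 and 117.8 in the Ri libraries and 95.4 and 89.9 in the WT libraries. The means were 93.9 FPKM ± 33.8 in Ri roots and 92.7 FPKM ± 3.92 in WT roots (SD, n = 2 each), a ratio of 1.01. On the log2 scale the difference of the means was -0.03, opposite in sign to the ratio, and the two-sided exact permutation test gave p = 1, where 2 libraries against 2 cannot go below 0.333. With the counts of the 9 members added into a single feature, which removes any division of fragments between members, the log2 fold change was 0.00 (standard error 0.28, edgeR adjusted p = 0.999).

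The replicates of the Ri genotype, by contrast, lay apart in the same direction in all 5 tested members, with replicate 2 the higher. The intervals given here cover counting error only, which the spread between separate libraries can exceed. In FPKM, Glyma.10G006700 was 2.76 times as high in Ri replicate 2 as in Ri replicate 1, and the ratio of its counts per library total was 2.75 with an exact 95% binomial interval of 2.25 to 3.39 for counting error. Between the WT libraries the same ratio, replicate 2 over replicate 1, was 1.10 with an interval of 0.922 to 1.31. For Glyma.10G186500 the ratio of counts was 1.61 (1.495 to 1.74) between the Ri libraries and 0.900 (0.837 to 0.968) between the WT libraries. These ratios use library totals without TMM scaling. In TMM-scaled CPM, WT replicates 1 and 2 stood closer, at 143.1 and 134.5 (log2 difference -0.09). No counting interval was computed on that scale, so a WT difference beyond counting error was not shown apart from the choice of scaling. For Glyma.20G204000 it was 1.47 (1.26 to 1.71) between the Ri libraries and 1.02 (0.885 to 1.18) between the WT libraries. The lower pair gave 1.43 (0.971 to 2.11) for Glyma.07G222700 and 1.54 (1.04 to 2.31) for Glyma.03G162800 between the Ri libraries. The interval of Glyma.07G222700 includes 1, and at this depth a difference between its Ri libraries was not shown. That of Glyma.03G162800 starts just above 1. In TMM-scaled CPM its Ri replicates 1 and 2 were at 4.286 and 6.245, a smaller ratio. Its difference was therefore not shown apart from the choice of scaling either. Between the WT libraries both intervals included 1, at 0.780 (0.508 to 1.19) for Glyma.07G222700 and 0.843 (0.574 to 1.24) for Glyma.03G162800.

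In CPM, 4 of the 5 members were lowest in Ri replicate 1 and highest in Ri replicate 2, an order that 11.8% of all genes tested showed, and the opposite order was shown by 12.3%. Glyma.07G222700 was the exception, since WT replicate 2 was its lowest library. The tested members were placed among 34021 genes by the log2 difference of Ri replicate 2 minus Ri replicate 1, whose median was near 0 and whose lower and upper quartiles were -0.33 and 0.38. All 5 members lay above the upper quartile. Glyma.10G006700, at 1.39, stood above 95.4% of the genes and was the single member of the 5 with more than 2-fold between the Ri libraries, where 8.28% of all genes tested with counts in both showed such a rise of replicate 2 over replicate 1. Glyma.10G186500 followed at 0.61, above 83.7% of the genes, and the other 3 lay between 0.45 and 0.54, above 78.0% to 81.6%. These 5 genes may share fragments and share the libraries, so they are not independent.

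**Figure D3:**
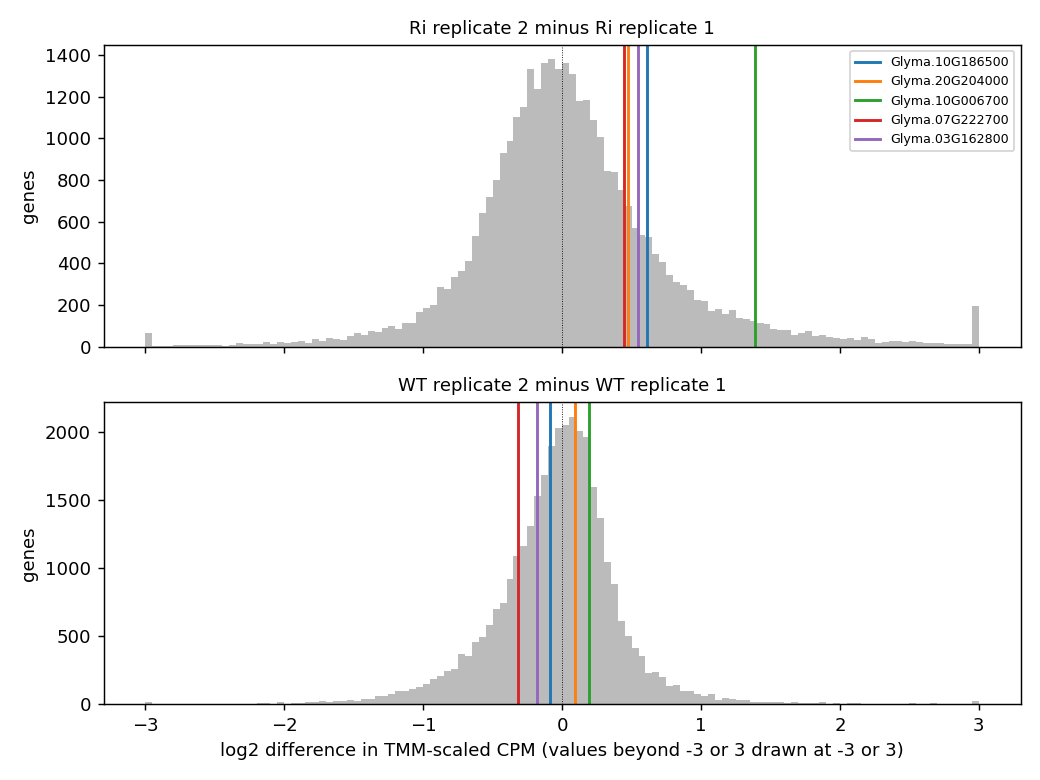
Distribution over 34021 genes of the log2 difference in CPM between replicate 2 and replicate 1 within Ri (top) and within WT (bottom), with the 5 tested PHT1 genes as coloured lines. Within Ri all 5 lines lie right of 0, from 0.45 to 1.39, and within WT they lie on both sides of 0, from -0.32 to 0.20.

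For 4 of the 5 members the sign of the comparison with WT depended on which Ri library was used. These are the 4 that were lowest in Ri replicate 1 and highest in Ri replicate 2, and the change of sign follows from that order. Of all genes tested, 11.8% showed that order and 12.3% the opposite order. Without Ri replicate 2, Glyma.10G006700 was called lower in Ri, with a log2 fold change of -0.93 and an edgeR adjusted p of 0.0243, in a fit that called 4.57% of all genes tested and 2.78% as lower. Without Ri replicate 1 its log2 fold change was 0.46 (edgeR adjusted p = 0.233), in a fit that called 5.65% of the genes. The spread in these fits comes from the WT libraries, and the lone Ri library was assumed to vary as they did. Glyma.10G186500 gave -0.30 without Ri replicate 2 and 0.32 without Ri replicate 1, Glyma.20G204000 gave -0.36 and 0.13 in that order, and Glyma.03G162800 gave -0.35 and 0.20. For Glyma.07G222700 the log2 fold change stayed above 0 in all 4 fits with a library left out, from 0.05 to 0.50.

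**Figure D4:**
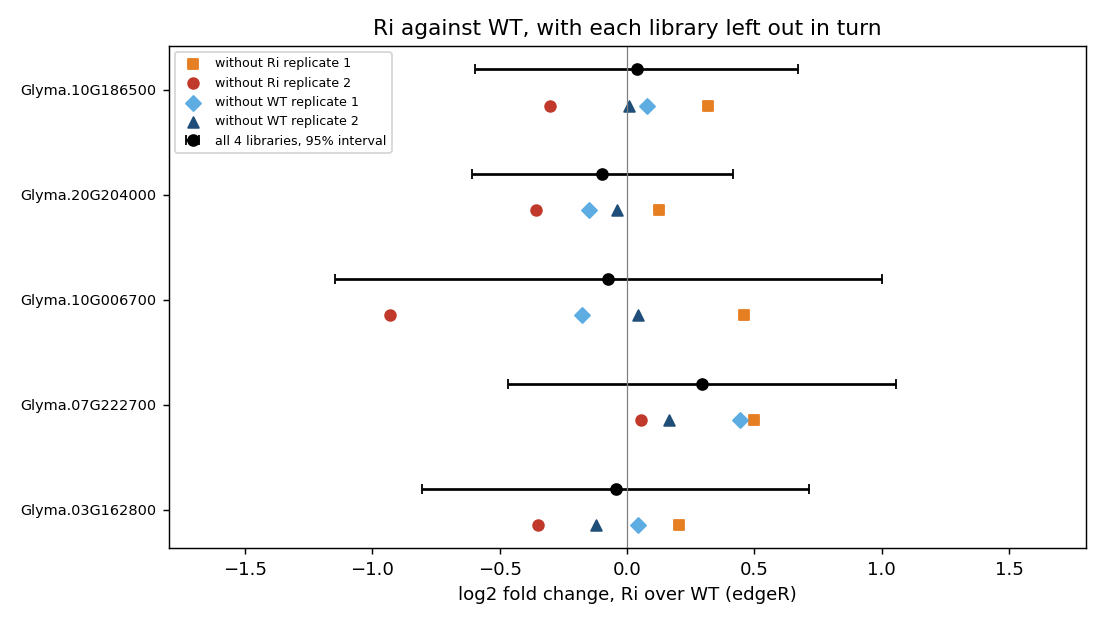
Log2 fold change of the 5 tested PHT1 genes, Ri over WT, from edgeR with all 4 libraries (black, with the 95% interval) and with each library left out (coloured symbols, no interval drawn). Every black interval includes 0, and for Glyma.10G006700 the value runs from -0.93 without Ri replicate 2 to 0.46 without Ri replicate 1.

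Likeness to Glyma.10G186500 was measured as the distance between log2 CPM values, centred on each gene's mean, over the 4 libraries, for 31480 other genes of at least 1 FPKM on average. This use of all genes was chosen after values had been seen, and with 4 libraries a short distance is easily met. Glyma.10G016300.Wm82.a2.v1 and Glyma.08G011600.Wm82.a2.v1 were nearest, at distances of 0.013 and 0.024. Glyma.10G016300 reached 13.4 and 21.4 FPKM in the Ri libraries and 17.4 and 15.9 FPKM in the WT libraries. Like the transporter it was low in Ri replicate 1 and high in Ri replicate 2, which follows from its choice by this distance. Among the PHT1 genes, Glyma.03G162800 came closest, at a distance of 0.11 and place 167, and Glyma.20G204000 took place 890 at 0.20. The distance takes no account of counting error, and Glyma.03G162800 had only 42 to 70.96 expected counts per library. Its place and the order of these members are therefore uncertain. Glyma.07G222700 was at 0.35, with 12.7% of the genes closer. Glyma.10G006700, at 0.63, was about as far as the median gene, at 0.64.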

How the data were processed

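Root RNA of 2 Ri and 2 WT libraries was isolated with Trizol and made into libraries with a BGI RNA-Seq kit, per the labels' protocols. The authors deposited 1 table per library. Its expected counts, per the file headers, are estimated fragments per gene, not normalized. The authors scaled FPKM by length and depth. The length column, in bases, is also the authors'. The submitters' processing notes name Bowtie2, HISAT and RSEM, without version, role or use of strand. Genes not listed in a table were taken as 0.

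Expected counts were rounded and tested with edgeR 4.0.16 (R 4.3.3) by its quasi-likelihood test, with TMM scaling, the default filter, robust estimation and a single genotype term, over 34151 genes at an adjusted p of 0.05. Standard errors are the fold change over the root of F, and 95% intervals use the fit's degrees of freedom, which draw in part on other genes. The alternatives comprised other scalings, the test of DESeq2 1.42.0, limma 3.58.1 after voom or with deposited FPKM as log2(FPKM + 1) and log2(FPKM + 0.1), no filter, a replicate block and leaving out each library. The edgeR, DESeq2 and voom fits and limma on log2 values were run on simulated counts as a check of the code only. The other alternatives were not. Counting intervals are exact Clopper-Pearson intervals and, like the floors, cover counting error only.

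The rule for named genes takes all 9 members. Product-name lists of other phosphate genes and of cell type markers, and motif searches in promoters, could not be tied to the identifiers (0 of 47973 matched the RefSeq table) and were not run. Members were taken by name and not by a value, but members and lists were chosen with earlier results of these data known.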

Additional observations from a re-analysis of the deposited data

How the results depend on the processing

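With all 4 libraries, 10 alternatives were fitted to each of the 5 tested members, and 0 members passed an adjusted p of 0.05 in any. Library totals only, limma-voom and limma on FPKM called 0 of all genes, so their 0 members carry no information. The others called 12 to 316 genes, a small share of those tested, so 0 members there says little about the family. The log2 fold changes kept their sign, except that of Glyma.10G186500, which was -5.4e-05 with limma-voom. The number of members called was 0 to 1 with 1 library left out, the 1 being Glyma.10G006700 without Ri replicate 2. Leaving out 1 library gave log2 fold changes of -0.35 to 0.20 for Glyma.03G162800, 0.05 to 0.50 for Glyma.07G222700, -0.93 to 0.46 for Glyma.10G006700, -0.30 to 0.32 for Glyma.10G186500 and -0.36 to 0.13 for Glyma.20G204000. The summed FPKM in Ri over WT, 1.01, turned below 1 as TPM (0.978) and without the member of the highest mean FPKM (0.974), was 1.003 as CPM, and was 0.755 to 1.27 with 1 library left out. In the order by mean FPKM, all 9 members kept their place with counts per kilobase, 6 in Ri replicate 1, 4 in Ri replicate 2, and 5 in each WT library.

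The count of all genes called, 40 in the fit by genotype, was 48 with DESeq2 size factors, 12 with upper-quartile factors, 164 without a filter and 316 with DESeq2. It was 0 with library totals only, limma-voom and limma on log2(FPKM + 1) or log2(FPKM + 0.1), with 2131, 2062, 2212 and 2191 genes at an unadjusted p under 0.05. It was 0 to 1994 with 1 library left out, with 0 without WT replicate 1 or 2 (795 and 991 genes had an unadjusted p below 0.05). It was 1994 without Ri replicate 1 and 1623 when Ri replicate 2 was left out. For these counts the cause was not tested. Same-numbered libraries were not treated as pairs. The differences between replicates 1 and 2 in Ri and in WT had a correlation of -0.31 across 20248 genes of at least 8 CPM. The replicate block called 107 genes and a crossed replicate block, chosen after seeing this correlation, 68. Neither called a member.

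The planned sum of members with near-identical proteins was not run, as no protein sequence was used here, and the sum of all 9 was fitted instead, a choice made after seeing the data. The lists of other phosphate pathway genes were run under no setting. With 2 libraries per genotype, the intervals of the members still hold changes of up to about 2-fold for Glyma.10G006700 and Glyma.07G222700, and the 4 members at or near the floor of 3 counts have intervals too wide to place a difference between genotypes.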
